A study of Mus musculus with 30 samples.

Results

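The 10 genes described here are those named for neutrophil traffic and activation: 6 receptors (Csf3r, Cxcr2, Il1r2, Clec4d, Clec4e and Trem1), the S100 proteins S100a8 and S100a9, and the chemokines Cxcl1 and Cxcl2. They were chosen by name, by matching the listed mouse symbols to the Ensembl identifiers of the count table, and are 10 of its 55471 genes. Their transcripts were counted in 30 RNA-seq libraries from subcutaneous tumours of MC38, a mouse colon carcinoma line, in 6 groups of 5. Of the 10, 9 had enough counts to be tested and Cxcr2 did not.

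Tumours were grown from 1000000 cells in female C57BL/6 mice aged 6 to 8 weeks, from MC38 cells with loss-of-function mutations in B2m (B2mKO), from cells with such mutations in Jak1 (Jak1KO), or from wild-type cells (WT). B2m completes the MHC class I complex that presents peptides to T cells, while the kinase Jak1 relays signals from interferon and other cytokine receptors. Each genotype was sampled after blockade of PD-1, a checkpoint receptor of T cells, with the antibody aPD1, and after the control antibody IgG1, so the groups were B2mKO aPD1, B2mKO IgG1, Jak1KO aPD1, Jak1KO IgG1, WT aPD1 and WT IgG1. Every mouse of all 6 groups received an antibody, 100 µg into a vein on days 7, 10 and 13, and tumours were taken on day 14. The mutations were those of the injected cells, and no mutation is named for the host mice, whose own cells enter the tumours. Whether a knockout line was 1 clone or a pool, and whether each library came from its own mouse, is not given in the sources used here. The p-values therefore measure the spread between these samples.

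Neutrophils are released from the bone marrow under the cytokine G-CSF, whose receptor is Csf3r, and are drawn into tissue by the chemokines Cxcl1 and Cxcl2 acting on Cxcr2. In tissue, Clec4d and Clec4e (also called MCL and Mincle) are C-type lectins that sense microbial lipids and damaged cells, and Trem1 is an activating receptor that amplifies inflammatory signals. Il1r2 is a decoy receptor that binds interleukin-1 without passing on its signal. S100a8 and S100a9 form calprotectin, the most abundant cytosolic protein of neutrophils. Apart from Cxcr2, these receptors and the lectins in particular are also found on monocytes and macrophages, and the chemokines are made by tumour, stromal and myeloid cells.

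Against the name given to the gene set, most transcripts listed as markers of neutrophils themselves were close to absent, though not all. Ly6g, the surface protein used to identify mouse neutrophils, had 1 count over all 30 libraries, Retnlg had 36, Stfa2l1 had 9, Mrgpra2b had 4 and Cxcr1, the other receptor for such chemokines, had 4. Reads that fit several related genes may be missing from Ly6g and its relatives. Of 18 other listed neutrophil markers, 10 were under 1 CPM in all 30 libraries, and so were 8 of 13 granule genes of immature neutrophils, Elane, Mpo, Camp and Ltf among them. CPM is a gene's counts per 1000000 counts of the library, with its total scaled by TMM, edgeR's correction for composition. The summed level of the 18 markers was 341 to 509 CPM in B2mKO aPD1, 279.6 to 527 in B2mKO IgG1, 189 to 264 in Jak1KO aPD1, 170.5 to 243 in Jak1KO IgG1, 162 to 275 in WT aPD1 and 136 to 285 in WT IgG1 libraries. Most of that sum was Mmp9, a gelatinase that macrophages and stroma also make, at 127 to 517 CPM. Fpr2 had a median of 3.58 CPM and reached 19.6, and Fpr1 had 2.32 and reached 7.39. Mmp25 had a median of 2.33 CPM and reached 17.3, and Hdc had 1.52 and reached 2.82. Among the granule genes, Chil3 had a median of 2.53 CPM and reached 42.3. Csf3, which encodes G-CSF, had 3 counts over all 30 libraries, and Il17a, a cytokine upstream of it, had 2.

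Markers of monocytes and macrophages were abundant, and all 15 listed were tested. Their summed level was 3360 to 6011 CPM in B2mKO aPD1, 2476 to 3880 in B2mKO IgG1, 2473 to 3936 in Jak1KO aPD1, 2577 to 3569 in Jak1KO IgG1, 2751 to 6190 in WT aPD1 and 1478 to 5976 in WT IgG1 libraries. Per kilobase of exon, the median over 30 libraries was 745 CPM for Lyz2 (lysozyme) and 454 CPM for C1qa (complement). On the same scale the highest of the 10 genes was Clec4d at 6.68 CPM per kilobase, followed by Csf3r at 3.24, Trem1 at 2.84, Cxcl1 at 2.12, Clec4e at 1.86 and Il1r2 at 1.09. Cxcl2 was at 0.426, S100a9 at 0.336, S100a8 at 0.323 and Cxcr2 at 0.0166 CPM per kilobase. The 10 genes thus fell into a measurable set of receptors with Cxcl1, a sparse set (Cxcl2, S100a8 and S100a9), and Cxcr2 at the limit of detection. Of the listed neutrophil markers, Fpr2 was at 2.76 and Fpr1 at 1.75 CPM per kilobase, within the range of these receptors. Since most of the listed neutrophil markers were near 0, the genes are called by their symbols below. In bulk tissue, fewer cells of a type and less RNA per cell cannot be told apart.

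**Figure D1:**
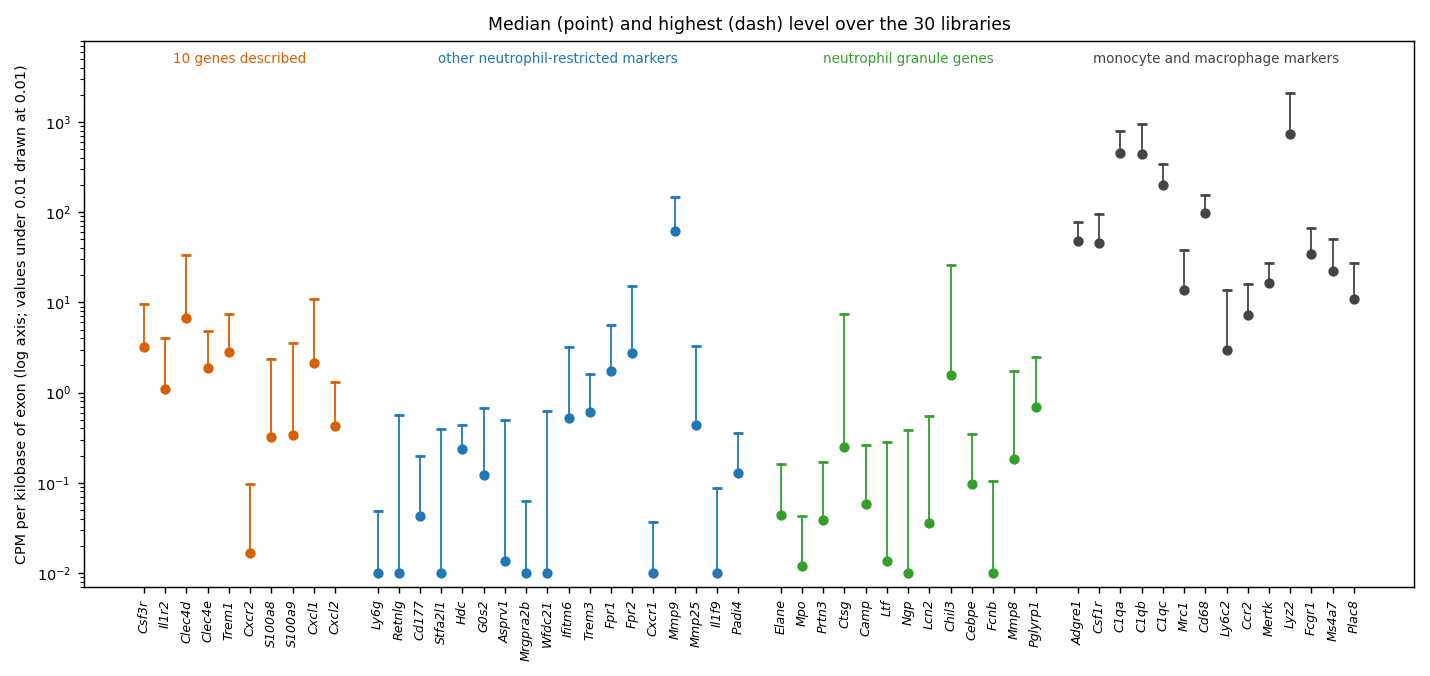
Levels of the 10 genes and of marker lists, as CPM per kilobase of exon on a log axis; points are medians and dashes the highest of the 30 libraries, joined by a line, and 14 of the 15 monocyte and macrophage markers are drawn. Lyz2 and C1qa lie above all 10 genes, while Ly6g, Retnlg, Stfa2l1, Mrgpra2b, Wfdc21, Cxcr1, Il1f9, Ngp and Fcnb have a median of 0.

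Total counts were 17629795 to 25944701 per library. The targeted genes followed the labels, since B2m was at 749 ± 160.3 CPM in B2mKO aPD1 and 617 ± 112 CPM in B2mKO IgG1 libraries (mean ± SD, n = 5), against 4572 ± 728 CPM in WT aPD1 and 3090 ± 911 CPM in WT IgG1. In Jak1KO libraries B2m was also below WT, at 1249 ± 309 CPM with aPD1 and 1205 ± 92.9 CPM with IgG1. Jak1 was at 72.4 ± 6.99 CPM in Jak1KO aPD1 and 71.5 ± 4.98 CPM in Jak1KO IgG1 libraries, against 239 ± 6.09 CPM in WT aPD1 and 232 ± 28.7 CPM in WT IgG1. A pair of libraries stood apart over all 15505 genes tested: B2mKO aPD1 replicate 2 and WT IgG1 replicate 3 had mean correlations of 0.953 and 0.954 with the other libraries of their groups, against 0.971 or more elsewhere. Without both, every call between groups given below for the 9 tested genes remained, and 2 were added: Clec4e in WT tumours with aPD1 against IgG1, and S100a9 in Jak1KO against WT tumours with IgG1. Calls of other genes named below were not compared under this or other alternatives. WT IgG1 replicate 1 was the highest of its group for Cxcr2, S100a8, S100a9, Cxcl1 and Cxcl2.

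Clec4d was higher in WT tumours after aPD1, and no such difference passed in either knockout. Clec4d (ENSMUSG00000030144, chromosome 6, 123262111 to 123275265 on the plus strand, GRCm38) had 49.3, 53.1, 24.6, 13.2 and 33.3 CPM in WT aPD1 libraries, against 13.2, 5.37, 12.3, 8.05 and 8.22 CPM in WT IgG1 libraries. The lowest treated library, replicate 4, lay just above the highest control, so the groups did not overlap, as was the case for 1.19% of all genes tested. The log2 fold change was 1.87 ± 0.34 (SE, edgeR adjusted p = 0.00236). When only the WT groups were fitted, with their own estimate of the spread, the fold change was 1.88 and the adjusted p 0.0539. In B2mKO tumours Clec4d had 9.40, 14.7, 6.39, 15.1 and 6.85 CPM with aPD1, against 15.1, 9.33, 10.4, 11.4 and 9.11 CPM with IgG1. In Jak1KO tumours it had 16.0, 8.36, 7.10, 7.80 and 21.0 CPM with aPD1, against 6.62, 8.69, 11.0, 12.4 and 6.86 CPM with IgG1. Within each knockout the treated and control ranges overlapped. Set against WT aPD1 tumours, Clec4d was lower in B2mKO aPD1 tumours by a log2 fold change of -1.73 ± 0.34 (SE, edgeR adjusted p = 0.00055), and in Jak1KO aPD1 tumours by -1.52 ± 0.34 (SE, edgeR adjusted p = 0.00151). The test of whether the antibody effect differed from that in WT tumours gave -1.95 ± 0.48 (SE, edgeR adjusted p = 0.0963) for B2mKO and -1.47 ± 0.48 (SE, edgeR adjusted p = 0.315) for Jak1KO, both short of the threshold with edgeR. With DESeq2 the B2mKO difference passed (adjusted p = 0.0115), and it also passed with edgeR without WT aPD1 replicate 4, the lowest treated WT library (adjusted p = 0.0156).

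Clec4e, the neighbour of Clec4d, was lower in Jak1KO than in WT tumours under both antibodies. Clec4e (ENSMUSG00000030142, chromosome 6, 123281789 to 123289870 on the minus strand, GRCm38) lies 6523 bases from Clec4d on chromosome 6. It had 20.3, 23.8, 20.6, 12.3 and 17.7 CPM in WT aPD1 libraries, against 12.9, 5.86, 17.5, 10.2 and 6.42 CPM in WT IgG1 libraries. The ranges overlapped, since WT IgG1 replicates 1 and 3 exceeded WT aPD1 replicate 4, and the log2 fold change of 0.84 ± 0.29 (SE, edgeR adjusted p = 0.106) missed the threshold. Without WT IgG1 replicate 3, one of the libraries that stood apart, it was 1.09 ± 0.29 (SE, edgeR adjusted p = 0.0315). Clec4e had 8.61, 4.75, 4.38, 3.24 and 10.1 CPM in Jak1KO aPD1 and 4.10, 4.55, 2.82, 5.03 and 4.47 CPM in Jak1KO IgG1 libraries, all below every WT library of the same antibody, as was the case for 10.3% of all genes with aPD1 and 8.09% with IgG1. The log2 fold changes against WT were -1.60 ± 0.30 (SE, edgeR adjusted p = 0.000278) with aPD1 and -1.33 ± 0.31 (SE, edgeR adjusted p = 0.00341) with IgG1. In B2mKO tumours it had 6.76, 13.2, 9.37, 10.1 and 9.12 CPM with aPD1 and 13.0, 9.76, 5.16, 14.3 and 8.45 CPM with IgG1. That was lower than in WT tumours with aPD1 (log2 fold change -0.96 ± 0.29 SE, edgeR adjusted p = 0.0199), with 4 of 5 B2mKO libraries below all WT ones, but the call was lost without B2mKO aPD1 replicate 1 (adjusted p = 0.0570) or without WT aPD1 replicate 2 (adjusted p = 0.0544). With IgG1, Clec4e was higher in B2mKO than in Jak1KO tumours (log2 fold change 1.27 ± 0.31 SE, edgeR adjusted p = 0.00280), again without overlap, as for 14.0% of all genes. With aPD1 that difference was 0.64 ± 0.30 (SE, edgeR adjusted p = 0.120), short of the threshold.

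Trem1 was lower in Jak1KO than in WT tumours under both antibodies, and its means in B2mKO tumours lay between. Trem1 (ENSMUSG00000042265, chromosome 17, 48232768 to 48246924 on the plus strand, GRCm38) had 7.36, 4.90, 3.64, 2.18 and 6.51 CPM in Jak1KO aPD1 libraries, against 17.1, 22.3, 19.5, 12.6 and 19.8 CPM in WT aPD1 libraries. With IgG1 it had 2.95, 4.95, 2.87, 4.11 and 3.64 CPM in Jak1KO libraries, against 10.2, 7.69, 19.1, 15.4 and 10.7 CPM in WT libraries. With either antibody all 5 Jak1KO libraries lay below all 5 WT libraries, as for 10.3% of all genes with aPD1 and 8.09% with IgG1. The log2 fold changes were -1.89 ± 0.27 (SE, edgeR adjusted p = 8.23e-06) with aPD1 and -1.76 ± 0.28 (SE, edgeR adjusted p = 4.15e-05) with IgG1. The B2mKO levels were 8.05, 15.3, 6.98, 8.45 and 9.55 CPM with aPD1 and 8.53, 8.64, 8.30, 14.1 and 11.6 CPM with IgG1. Trem1 was lower in B2mKO than in WT tumours with aPD1 (log2 fold change -0.92 ± 0.26 SE, edgeR adjusted p = 0.0125), and it was higher in B2mKO than in Jak1KO tumours with aPD1 (log2 fold change 0.97 ± 0.27 SE, edgeR adjusted p = 0.00823) and with IgG1 (log2 fold change 1.47 ± 0.28 SE, edgeR adjusted p = 0.000204). In this last comparison the groups did not overlap, as for 14.0% of all genes. In WT tumours the aPD1 group exceeded the IgG1 group by 0.54 ± 0.26 (SE, edgeR adjusted p = 0.268), short of the threshold.

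Il1r2, the decoy receptor, was lower in both knockouts than in WT tumours after aPD1. Il1r2 (ENSMUSG00000026073, chromosome 1, 40074079 to 40125231 on the plus strand, GRCm38) had 1.80, 1.14, 1.80, 0.969 and 1.52 CPM in Jak1KO aPD1 libraries, against 7.77, 6.72, 6.70, 2.21 and 3.98 CPM in WT aPD1 libraries. These groups did not overlap (as for 10.3% of all genes), and the log2 fold change was -1.90 ± 0.36 (SE, edgeR adjusted p = 0.000312). In B2mKO aPD1 libraries it had 2.11, 4.56, 1.22, 3.64 and 1.66 CPM, and 3 of the 5 were below all WT aPD1 libraries. The difference of -1.05 ± 0.34 (SE, edgeR adjusted p = 0.0285) passed but was not stable: leaving out any 1 of 6 libraries (WT aPD1 replicates 1, 2 and 3 and B2mKO aPD1 replicates 1, 3 and 5) ended the call, with adjusted p-values up to 0.0906, and it was 0.116 when only the compared groups were fitted. With IgG1 the levels were 1.43, 1.73, 1.17, 1.31 and 2.64 CPM in B2mKO, 1.20, 0.999, 1.27, 3.65 and 2.05 CPM in Jak1KO and 4.05, 2.38, 2.28, 3.77 and 2.64 CPM in WT libraries. In WT tumours the antibody difference was 0.84 ± 0.34 (SE, edgeR adjusted p = 0.174), with 3 treated libraries above and 1 below all controls, and it missed the threshold.

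Csf3r, the G-CSF receptor, differed from Clec4e and Trem1 in that WT IgG1 was the group with its lowest mean. For Clec4d, WT IgG1 was next to lowest, at a mean of 9.43 CPM against 9.10 CPM in Jak1KO IgG1. Csf3r (ENSMUSG00000028859, chromosome 4, 126024550 to 126044440 on the plus strand, GRCm38) had 20.2, 34.3, 16.4, 8.19 and 20.7 CPM in WT aPD1 libraries, against 2.57, 6.64, 6.34, 10.9 and 4.79 CPM in WT IgG1 libraries. Of the treated libraries 4 of 5 exceeded all controls, and the log2 fold change was 1.69 ± 0.33 (SE, edgeR adjusted p = 0.00392). With only the WT groups fitted the adjusted p was 0.0828. In Jak1KO tumours Csf3r had 19.4, 8.36, 14.3, 9.78 and 12.6 CPM with aPD1, against 18.7, 7.69, 13.6, 16.1 and 11.9 CPM with IgG1. In B2mKO tumours it had 10.5, 8.04, 11.6, 18.8 and 13.4 CPM with aPD1, against 7.68, 7.69, 12.4, 10.1 and 11.8 CPM with IgG1. With IgG1, Csf3r was higher in Jak1KO than in WT tumours (log2 fold change 1.13 ± 0.33 SE, edgeR adjusted p = 0.0177), the only one of the 9 tested genes to be higher in a knockout than in WT. That call was lost without WT IgG1 replicate 1, its lowest library (adjusted p = 0.0548), without Jak1KO IgG1 replicate 1 (adjusted p = 0.0542) and when only the compared groups were fitted (adjusted p = 0.0530). The antibody effect on Csf3r in B2mKO tumours minus that in WT tumours was -1.36 ± 0.46 (SE, edgeR adjusted p = 0.219) and in Jak1KO minus WT tumours -1.76 ± 0.46 (SE, edgeR adjusted p = 0.200), both short of the threshold. The Jak1KO difference passed with DESeq2 (adjusted p = 0.0467) and with edgeR without WT aPD1 replicate 4 (adjusted p = 0.0297).

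Cxcr2, the receptor through which Cxcl1 and Cxcl2 attract neutrophils, was barely detected. Cxcr2 (ENSMUSG00000026180, chromosome 1, 74153989 to 74161246 on the plus strand, GRCm38) had 2, 1, 0, 2 and 4 counts in B2mKO aPD1, 2, 2, 2, 6 and 1 in B2mKO IgG1, 0, 1, 1, 0 and 2 in Jak1KO aPD1 and 0, 2, 0, 2 and 2 in Jak1KO IgG1 libraries. It had 3, 0, 0, 1 and 0 counts in WT aPD1 and 7, 0, 1, 1 and 0 in WT IgG1 libraries. That is 45 counts in all, with 10 libraries at 0. If counts are independent, a count of 0 allows a level of up to 3 counts, or 0.118 to 0.166 CPM, for counting error only. Both mates of a pair can add to a count here, so the limit can be higher. In the fit with no filter on low counts, Cxcr2 passed in no comparison (edgeR adjusted p of 0.591 or more). At so few counts the lack of a call does not show that the groups were alike.

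**Figure D2:**
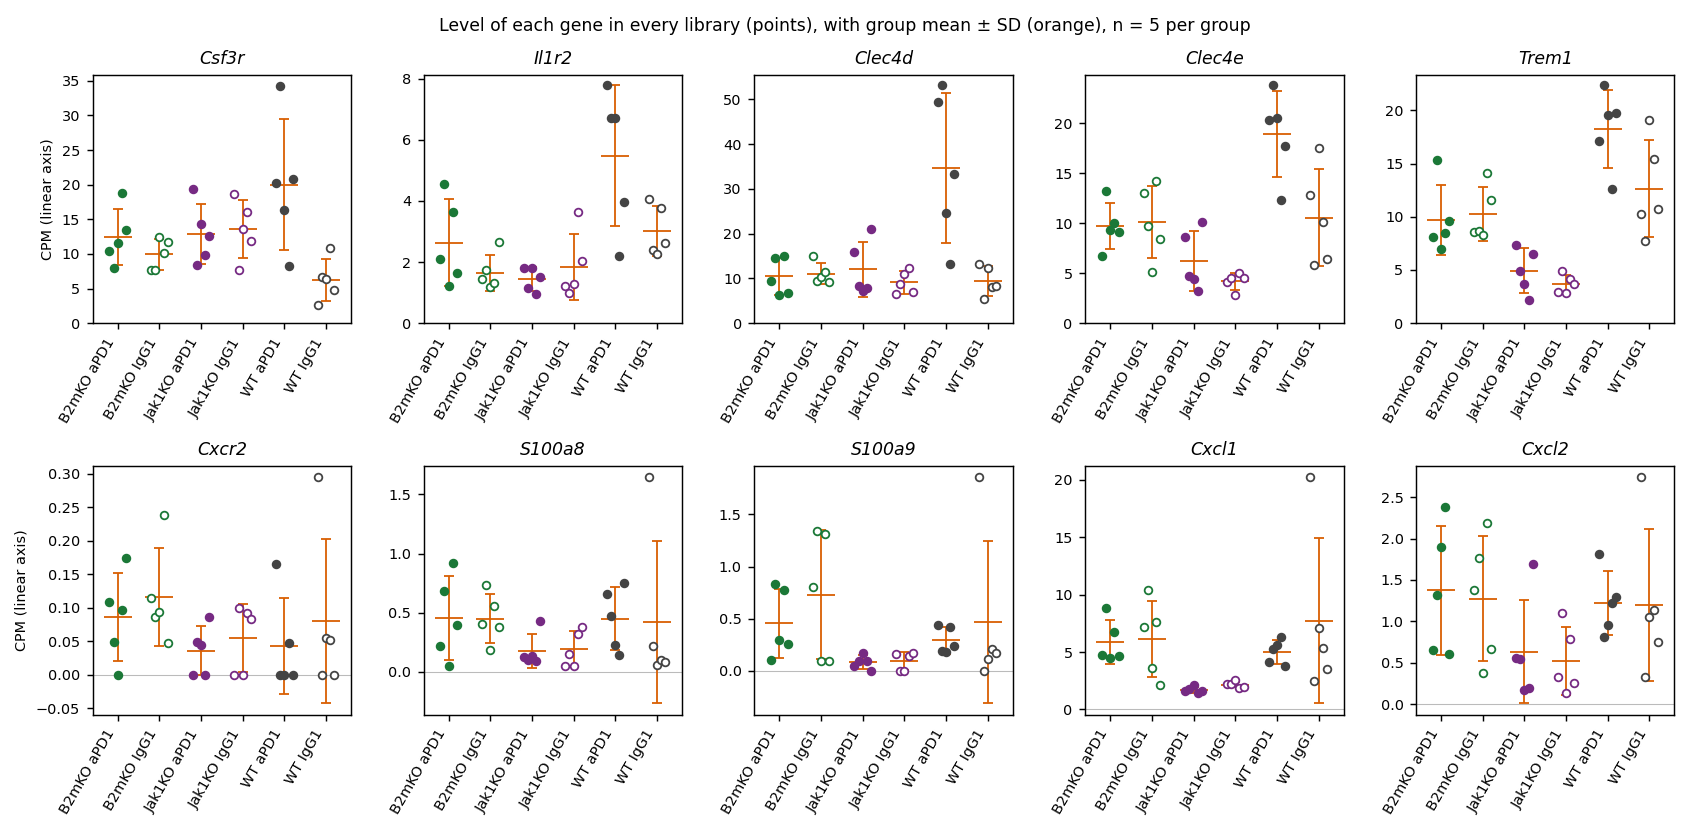
CPM of each gene in every library on linear axes, 1 panel per gene; filled circles are aPD1 and open circles IgG1 libraries, and orange marks give the group mean ± SD (n = 5). For Clec4d, Clec4e, Trem1 and Il1r2 the WT aPD1 group has the highest mean, and WT IgG1 replicate 1 is the isolated high point for S100a8, S100a9 and Cxcl1.

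S100a8 and S100a9, which lie 22596 bases apart on chromosome 3, were sparsely counted. S100a8 (ENSMUSG00000056054, chromosome 3, 90668978 to 90670035 on the plus strand, GRCm38) had 235 counts and S100a9 (ENSMUSG00000056071, chromosome 3, 90692632 to 90695721 on the minus strand, GRCm38) 233 counts over the 30 libraries. S100a9 had 2, 17, 6, 16 and 6 counts in B2mKO aPD1 and 14, 31, 2, 33 and 2 in B2mKO IgG1 libraries. It had 1, 2, 4, 2 and 0 counts in Jak1KO aPD1 and 3, 0, 0, 3 and 4 in Jak1KO IgG1 libraries. In WT tumours it had 8, 4, 4, 9 and 6 counts with aPD1 and 44, 0, 2, 4 and 4 with IgG1, the last group holding the highest library of all and a library at 0. With IgG1, S100a9 was higher in B2mKO than in Jak1KO tumours by a log2 fold change of 2.90 ± 0.86 (SE, edgeR adjusted p = 0.0105), with 3 B2mKO libraries above all Jak1KO ones and 2 within their range. With aPD1 the same difference was 2.40 ± 0.98 (SE, edgeR adjusted p = 0.0627) and missed the threshold with edgeR, while DESeq2 gave an adjusted p of 0.0383. Against WT IgG1 tumours, Jak1KO IgG1 tumours differed by -2.37 ± 0.93 (SE, edgeR adjusted p = 0.0732), and without WT IgG1 replicate 1 the value was -0.40. S100a8 had 4, 14, 1, 19 and 9 counts in B2mKO aPD1, 7, 17, 4, 14 and 8 in B2mKO IgG1, 3, 2, 3, 2 and 10 in Jak1KO aPD1 and 1, 3, 1, 7 and 9 in Jak1KO IgG1 libraries. It had 12, 10, 5, 3 and 19 counts in WT aPD1 and 39, 4, 1, 2 and 2 in WT IgG1 libraries, and it passed in no comparison.

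Of the ligands, Cxcl1 was lower in Jak1KO tumours than in the other genotypes under both antibodies. Cxcl1 (ENSMUSG00000029380, chromosome 5, 90891241 to 90893115 on the plus strand, GRCm38) had 1.58, 1.78, 2.10, 1.45 and 1.61 CPM in Jak1KO aPD1 libraries, against 4.14, 5.29, 5.61, 6.31 and 3.82 CPM in WT aPD1 libraries. With IgG1 it had 2.24, 2.20, 2.54, 1.89 and 1.97 CPM in Jak1KO libraries, against 20.2, 2.49, 7.11, 5.31 and 3.56 CPM in WT libraries. With aPD1 all 5 Jak1KO libraries lay below all 5 WT libraries, as for 10.3% of all genes. The log2 fold changes were -1.56 ± 0.44 (SE, edgeR adjusted p = 0.0114) with aPD1 and -1.85 ± 0.42 (SE, edgeR adjusted p = 0.00240) with IgG1. The second rested in part on WT IgG1 replicate 1, without which it was -1.09 (edgeR adjusted p = 0.0274). In B2mKO tumours Cxcl1 had 4.76, 8.87, 4.44, 6.70 and 4.62 CPM with aPD1 and 7.16, 10.4, 3.56, 7.59 and 2.12 CPM with IgG1. It was higher in B2mKO than in Jak1KO tumours with aPD1 (log2 fold change 1.78 ± 0.44 SE, edgeR adjusted p = 0.00272), where the groups did not overlap (nor did they for 10.6% of all genes), and with IgG1 (log2 fold change 1.51 ± 0.43 SE, edgeR adjusted p = 0.00785). Between aPD1 and IgG1 it passed in no genotype.

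Cxcl2 was the rarer ligand. Cxcl2 (ENSMUSG00000058427, chromosome 5, 90903871 to 90905938 on the plus strand, GRCm38) lies 10755 bases from Cxcl1 and had 0.649, 1.32, 1.90, 2.38 and 0.611 CPM in B2mKO aPD1 and 1.37, 1.77, 0.375, 2.19 and 0.661 CPM in B2mKO IgG1 libraries. It had 0.557, 0.544, 0.175, 0.194 and 1.69 CPM in Jak1KO aPD1 and 0.328, 1.10, 0.141, 0.785 and 0.251 CPM in Jak1KO IgG1 libraries. In WT tumours it had 1.82, 0.810, 0.951, 1.22 and 1.30 CPM with aPD1 and 2.74, 0.332, 1.06, 1.13 and 0.747 CPM with IgG1. All 6 groups overlapped with their neighbours in level. With IgG1 the difference between B2mKO and Jak1KO tumours was 1.32 ± 0.60 (SE, edgeR adjusted p = 0.102) and that between Jak1KO and WT tumours -1.26 ± 0.61 (SE, edgeR adjusted p = 0.150), neither past the threshold. Without WT IgG1 replicate 1, the highest Cxcl2 library of its group, the second was -0.66 (edgeR adjusted p = 0.509).

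Cxcl1 and Cxcl2 are known targets of NF-kappaB, and their promoters are shown because they are the genes of this set whose windows hold matches to an NF-kappaB-type motif, 2 in each. The windows run from 150 to 31 bases before the RefSeq start of each gene (GRCm38.p6, plus strand, chr5:90891095-90891214 and chr5:90903749-90903868). Capitals mark matches, on either strand, to an NF-kappaB-type motif of 3 G, 2 bases of any kind, 3 T and 2 C, and matches do not overlap.
Cxcl1: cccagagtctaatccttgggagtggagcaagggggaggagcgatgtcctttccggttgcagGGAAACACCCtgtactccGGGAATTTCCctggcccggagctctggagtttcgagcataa
Cxcl2: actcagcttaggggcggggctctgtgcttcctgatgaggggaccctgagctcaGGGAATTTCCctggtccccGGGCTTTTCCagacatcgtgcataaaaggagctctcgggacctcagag
In Cxcl1 the matches lay at -89 to -80 (minus strand) and -71 to -62 from the start. In Cxcl2 they lay at -97 to -88 and -78 to -69. In windows of the 250 bases before each RefSeq start, this motif was found in 464 of 32851 promoters (1.41%) and in no other of the 10 genes. A C/EBP-type motif, TTNNGCAA, was found in Clec4e and S100a9 and in 9.56% of all windows, and a PU.1-type motif, GAGGAAGT, in S100a8 and in 2.44%. A match describes letters in a window, not bound protein.

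Set against all genes, the counts of calls differed by comparison. In WT tumours with aPD1 against IgG1, 2 of the 9 tested genes rose (Csf3r and Clec4d) and none fell, where 4.38% of all 15505 genes passed, 3.75% higher and 0.632% lower. In the same comparison within B2mKO and within Jak1KO tumours none of the 9 passed in edgeR or DESeq2, and 0% of all genes did in B2mKO and 0% in Jak1KO tumours with edgeR. None of the 9 reached an unadjusted p under 0.05 there, where 516 genes did in B2mKO and 174 in Jak1KO tumours. With aPD1, 4 of 9 were lower in B2mKO than in WT tumours (Il1r2, Clec4d, Clec4e and Trem1) and none higher, at a background of 20.4% (9.87% higher and 10.5% lower). With IgG1 none of the 9 differed between B2mKO and WT tumours in edgeR or DESeq2, where 21.2% of all genes did (9.42% higher and 11.7% lower). Of the 9, 1 had an unadjusted p under 0.05, Il1r2 (log2 fold change -0.87 ± 0.37 SE, edgeR adjusted p = 0.0953), against 5340 of all 15505 genes.

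With aPD1, 5 of 9 were lower in Jak1KO than in WT tumours (Il1r2, Clec4d, Clec4e, Trem1 and Cxcl1) and none higher, at a background of 20.8% (8.40% higher and 12.4% lower). With IgG1, 3 were lower (Clec4e, Trem1 and Cxcl1) and 1, Csf3r, higher, at 18.3% (11.0% lower and 7.27% higher). B2mKO exceeded Jak1KO tumours for 4 of 9 with IgG1 (Clec4e, Trem1, S100a9 and Cxcl1), at a background of 28.6% (14.6% higher and 14.1% lower). It did so for 2 of 9 with aPD1 (Trem1 and Cxcl1), at 28.8% (15.1% higher and 13.7% lower). Comparisons with the same antibody share groups: WT aPD1 enters both knockout comparisons with aPD1 and the antibody comparison in WT. No tested gene passed the test of a difference in antibody effect with edgeR, where 0.103% of all genes did for B2mKO against WT (0.0129% higher and 0.0903% lower) and 0% for Jak1KO against WT. At an unadjusted p under 0.05 there were 3 of 9 in each, against 2560 of 15505 genes for B2mKO and 1286 for Jak1KO. DESeq2 called 1 of the 9 in each (Clec4d for B2mKO and Csf3r for Jak1KO), and 121 and 51 of all genes.

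**Figure D3:**
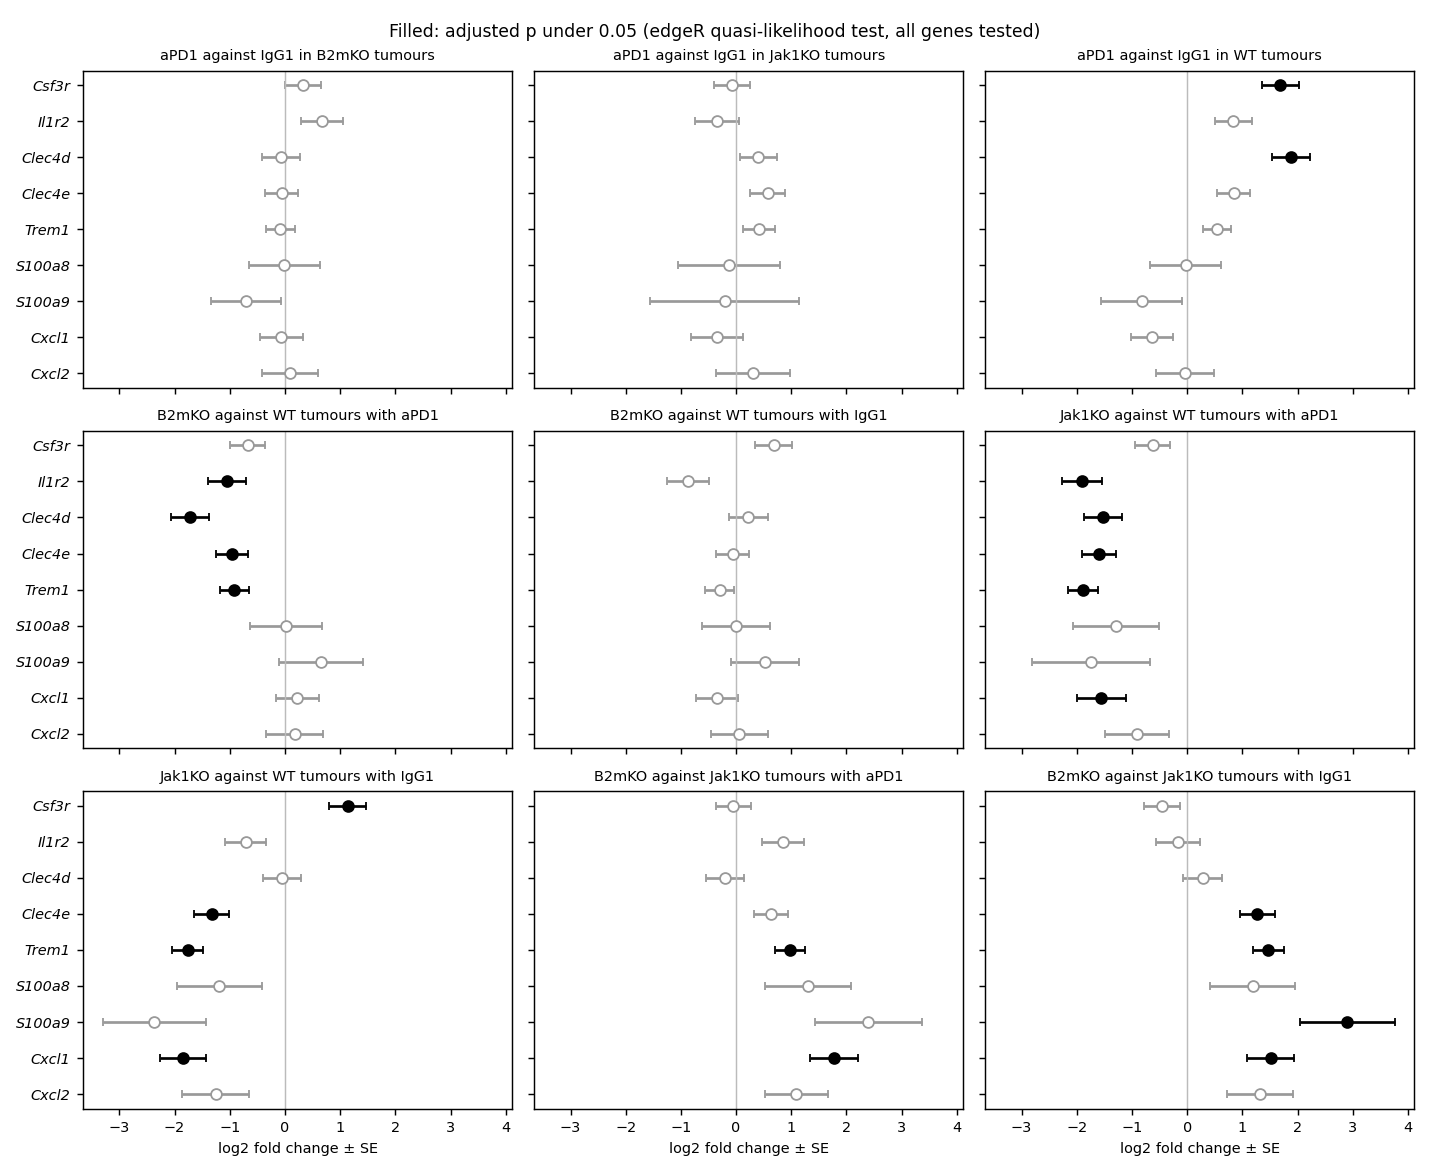
Log2 fold change ± SE of the 9 tested genes in 9 comparisons, with the first-named group over the second; filled points passed an adjusted p of 0.05. Filled points lie to the right for Csf3r and Clec4d in WT tumours and to the left for Clec4e and Trem1 in all 3 of the comparisons with WT tumours other than B2mKO with IgG1.

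The order of group means was the same for a pair of receptors. For Clec4e and for Trem1 it ran, low to high, Jak1KO IgG1, Jak1KO aPD1, B2mKO aPD1, B2mKO IgG1, WT IgG1 and WT aPD1. At the ends, Clec4e averaged 4.20 ± 0.836 CPM in Jak1KO IgG1 and 18.9 ± 4.29 CPM in WT aPD1 tumours, and Trem1 3.70 ± 0.862 CPM in Jak1KO IgG1 and 18.3 ± 3.66 CPM in WT aPD1 tumours (SD, n = 5). In every such neighbouring pair the ranges of the libraries overlapped. For Cxcl1 the Jak1KO groups were lowest, at 1.71 ± 0.251 CPM with aPD1 and 2.17 ± 0.256 CPM with IgG1, and the step to the next group, WT aPD1 at 5.03 ± 1.04 CPM, was 1 of the 2 gaps between neighbouring groups of these 10 genes without overlap. The other was S100a9, at 0.0940 ± 0.0865 CPM in Jak1KO IgG1 and 0.295 ± 0.128 CPM in WT aPD1 tumours. There the nearest libraries of the 2 groups had 4 counts each, at 0.167 and 0.181 CPM. Both gaps lay between Jak1KO IgG1 and WT aPD1, which differ in genotype and in antibody. The share of all genes without overlap was not computed for these groups.

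Other neutrophil-associated and pathway genes, from lists chosen with earlier results of these data known, were read beside the 10. Of the 18 listed neutrophil markers, the 8 tested are those with enough counts, and Ly6g, Retnlg, Stfa2l1, Mrgpra2b and Cxcr1 are not among them. In WT tumours with aPD1 against IgG1, 3 of these 8 rose and none fell: Mmp25 (2.08 ± 0.40), Fpr2 (2.03 ± 0.49) and Fpr1 (1.62 ± 0.38; SE, edgeR adjusted p up to 0.0168). Mmp25 is a membrane-anchored protease, and Fpr1 and Fpr2 are formyl peptide receptors that monocytes and macrophages carry too. Over the 8, the median log2 fold change was 1.03, against -0.03 over all genes, of which 3.75% rose and 0.632% fell. None of the 5 tested granule genes passed. Of 15 monocyte and macrophage markers 2 rose, Cd68 (0.61 ± 0.16) among them, and none fell, with a median of 0.59 for the list. Of 11 T cell markers 2 rose, Trbc1 (2.01 ± 0.51) and Cd2 (1.84 ± 0.51), and none fell, with a median of 1.71 and summed levels of 10.5 to 64.2 CPM in WT aPD1 against 6.71 to 19.0 CPM in WT IgG1 libraries. Of 7 tested dendritic cell markers 2 rose, Clec9a (2.20 ± 0.37) and Xcr1 (2.38 ± 0.62), and none fell, with a median of 0.52. The part of these 3 lists in the rise of Clec4d and Csf3r was not tested.

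In WT tumours with aPD1 against IgG1, where 3.75% of all genes rose, 3 of the 20 signalling partners of these receptors rose and none fell. They were Syk (1.05 ± 0.20), the kinase downstream of Clec4d, Clec4e and Trem1, Clec5a (0.72 ± 0.20), another myeloid lectin, and Socs3 (0.64 ± 0.18), the feedback inhibitor of Csf3r and other cytokine receptors (edgeR adjusted p up to 0.0389). Of 9 tested attractants and cytokines, Tnf (1.30 ± 0.34) and Ccl3 (1.13 ± 0.32) rose and Pf4 (-0.97 ± 0.27), a platelet and macrophage chemokine, fell. Of 13 other chemoattractant and IL-1 receptors 4 rose and none fell: Ptafr (1.16 ± 0.26), Ltb4r1 (1.50 ± 0.37), C5ar1 (0.69 ± 0.18) and the IL-1 antagonist Il1rn (1.06 ± 0.30). In B2mKO and in Jak1KO tumours none of these list genes passed between the antibodies in edgeR, where 0% of all genes did.

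In Jak1KO against WT tumours with aPD1, 12.4% of all genes were lower and 8.40% higher. Of the 20 signalling partners 10 were lower and none higher, with a median of -0.56 against 0.02 over all genes. The 4 with the smallest p were Clec5a (-1.70 ± 0.20), Socs3 (-1.36 ± 0.18), Stat3 (-0.97 ± 0.14), the transcription factor of the G-CSF receptor, and Syk (-0.86 ± 0.20). Of the 13 other receptors 6 were lower, led by Ltb4r1 (-2.24 ± 0.39), the leukotriene B4 receptor, and Ccr1 (-1.69 ± 0.32). Of the 9 attractants, Csf1 (-0.76 ± 0.17), Il1b (-1.67 ± 0.43) and Tnf (-1.02 ± 0.33) were lower and Pf4 (1.17 ± 0.27) was higher. Among the 8 tested genes of the neutrophil marker list 4 were lower: Hdc, Ifitm6, Mmp25 and Trem3. Of the 15 monocyte and macrophage markers 2 were lower, Csf1r (-0.75 ± 0.24) among them, and Mertk (0.63 ± 0.12) and Mrc1 (1.28 ± 0.31) were higher. The shares of all genes were 12.4% lower and 8.40% higher, and the part of this list in the lower receptors was not tested. With IgG1, 4 of the 20 partners were lower in Jak1KO than in WT tumours (Bcl10, Stat3, Clec5a and Socs3), and none was higher. Of all genes, 11.0% were lower and 7.27% higher there. Cxcl5, another Cxcr2 ligand, was at 0.0554 ± 0.0387 CPM in Jak1KO IgG1 against 1.48 ± 2.78 CPM in WT IgG1 libraries (log2 fold change -4.66 ± 1.20 SE, edgeR adjusted p = 0.00532), where the SD of the WT group exceeded its mean.

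In B2mKO against WT tumours with aPD1, 10.5% of all genes were lower and 9.87% higher. Of the 20 partners 4 were lower and none higher, among them Socs3 (-1.13 ± 0.18) and Clec5a (-0.95 ± 0.20). The tested genes of the neutrophil marker list went both ways: Mmp25 (-1.77 ± 0.39), Ifitm6 (-1.47 ± 0.45) and Fpr2 (-1.52 ± 0.48) were lower and Mmp9 (1.17 ± 0.19) was higher. The granule list did too, with Mmp8 lower and Ctsg and Pglyrp1 higher. Mmp9 averaged 413 ± 72.2 CPM in B2mKO aPD1 against 183 ± 40.6 CPM in WT aPD1 libraries. Fibroblast markers were higher in the same comparison for 7 of 10, with summed levels of 10240 to 23443 CPM in B2mKO aPD1 against 4980 to 9942 CPM in WT aPD1 libraries, and endothelial markers for 7 of 9. With IgG1, where none of the 9 tested genes passed between B2mKO and WT tumours, fibroblast markers were higher for 8 of 10 and endothelial markers for 0 of 9. Of all genes, 9.42% were higher with IgG1. The fibroblast medians were 1.23 with aPD1 and 1.21 with IgG1. The part of these stromal markers in the lower lectins and Trem1 was not tested.

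Within groups, the 10 genes did not vary as a single block. For each pair of genes, log2 CPM (prior count 2) was taken as a deviation from the group mean in each of the 30 libraries, and Pearson's r was tested by 100000 permutations within groups, two-sided, with Benjamini-Hochberg adjustment over the 45 pairs. Of these, 16 pairs passed, all positive. The closest were S100a9 with Cxcl1 (r = 0.80, permutation p = 0.00066, adjusted p = 0.00742, rho = 0.64 with permutation p = 0.00292 and adjusted p = 0.0296, and r = 0.67 without the 2 farthest libraries). Clec4e and Trem1, on different chromosomes, came next (r = 0.77, permutation p = 5e-05, adjusted p = 0.00225, rho = 0.72 with permutation p = 0.00029 and adjusted p = 0.00652, and r = 0.74 without the 2 farthest libraries). Clec4e followed Cxcl2 (r = 0.69, permutation p = 0.00039, adjusted p = 0.00585, rho = 0.68 with permutation p = 0.00046 and adjusted p = 0.00690, and r = 0.63 without the 2 farthest libraries) and its neighbour Clec4d (r = 0.66, permutation p = 0.00022, adjusted p = 0.00495, rho = 0.66 with permutation p = 0.00027 and adjusted p = 0.00652, and r = 0.59 without the 2 farthest libraries).

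Among the 5 tested receptors 5 of 10 pairs passed, and none of them involved Csf3r, whose r with the other 4 was 0.11 to 0.31. Csf3r was the one gene with negative values against both S100 genes and both ligands, -0.44 with Cxcl1 and -0.34 with S100a9, none past the threshold. Among S100a8, S100a9, Cxcl1 and Cxcl2, 5 of 6 pairs passed, of which only S100a9 with Cxcl1 also passed by Spearman's rho. The neighbours S100a8 and S100a9 had an r of 0.54 (0.38 without the 2 farthest libraries) and Cxcl1 and Cxcl2 one of 0.50 (0.38 without them). Between the 5 receptors and these 4 genes, 4 of 20 pairs passed. Both pairs with Cxcr2 that passed rest on at most 7 counts per library. Only 8 pairs passed by Spearman's rho, so the extent of this pattern depends on the measure.

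**Figure D4:**
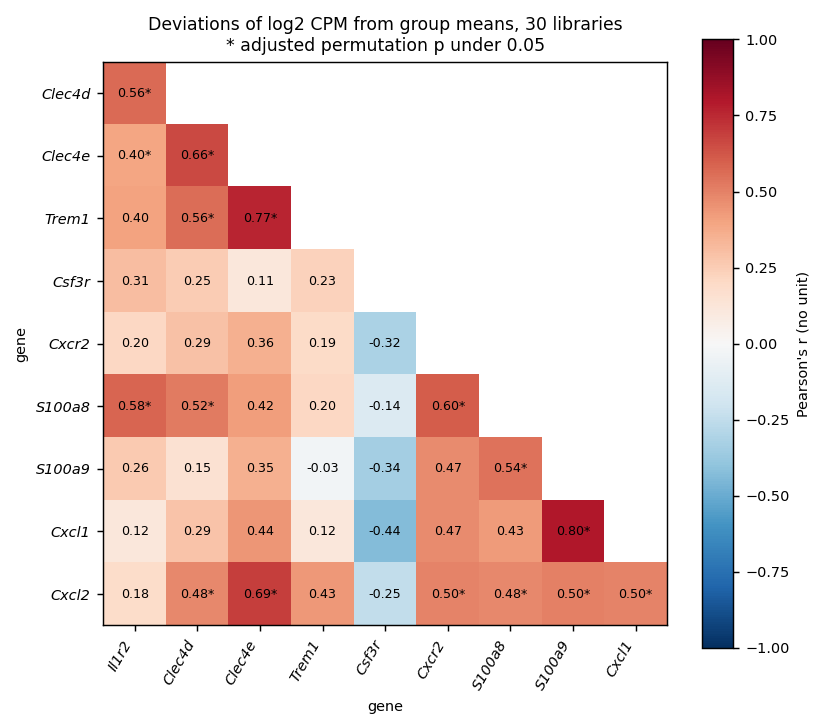
Pearson's r (no unit, colour scale from -1 to 1) between deviations of log2 CPM from group means for each pair of the 10 genes over 30 libraries; asterisks mark an adjusted permutation p under 0.05. The row and column of Csf3r hold no asterisk, and the pairs S100a9 with Cxcl1 (0.80) and Clec4e with Trem1 (0.77) are the darkest.

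Over all 30 libraries, group differences included, the genes closest to each of the 9 were of different kinds, and these correlations describe likeness in these libraries with no test. Values in brackets are Pearson's r and Spearman's rho of log2 CPM. Close to Clec4e were Ly6a (0.90, 0.91) and Nos2 (0.90, 0.88). Trem1 was most like H2-Q7 (0.92, 0.91), Mlkl (0.92, 0.95) and Ttc39c (0.92, 0.94), the first an MHC class I gene with near-identical copies. Clec4d was most like Fth1 (0.89, 0.73), Glrx (0.87, 0.66) and Ninj1 (0.86, 0.69). For Il1r2 these were Cytip (0.85, 0.79), Prss30 (0.83, 0.72) and Grb2 (0.82, 0.78). Csf3r was closest to Ssh3 (0.93, 0.92), Dennd1c (0.92, 0.89) and Cd300ld3 (0.92, 0.86). Cxcl1 was closest to Cd164 (0.87, 0.86), Zfp655 (0.87, 0.91) and Il13ra2 (0.87, 0.89), and Cxcl2 to Retreg2 (0.81, 0.82), Igfbp4 (0.79, 0.81) and Camk2n1 (0.77, 0.78). The sparse S100a8 was most like Cebpb (0.74, 0.75), Ereg (0.70, 0.71) and Litaf (0.69, 0.71), and S100a9 most like Cxcl5 (0.80, 0.66), Prune1 (0.73, 0.68) and Galt (0.72, 0.71). No gene appeared for more than 1 of the 9.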

How the data were processed

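RNA was sequenced as paired ends from pieces of about 50 mg of tumour, per the labels. The deposited values are raw counts per Ensembl gene (GRCm38, release 99), made by the authors with featureCounts 2.0.0 without options for strand, pairs or multiply aligned reads, per the file headers, so both mates of a pair can add to a count and genes that overlap or share sequence are uncertain. The submitters' processing notes also name mm10, edgeR 3.24.3, Cufflinks 2.2.1, STAR 2.5.2a and FastQC 0.11.2, and no role of these beyond the headers was used. The 30 single-library tables equalled the series table. The header of 1 library, WT aPD1 replicate 2, names another alignment file. Of 55471 identifiers, 327 had no symbol in the table of gene names (0.047% of counts) and stayed in library totals.

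Counts were fitted in 1 model of 6 groups with edgeR 4.0.16 (quasi-likelihood, TMM factors 0.939 to 1.04, R 4.3.3) over 15505 genes kept by its filter (minimum count 10, minimum total 15), with Benjamini-Hochberg adjustment over all of them and a threshold of 0.05. The SE is the absolute log2 fold change over the square root of F. Replicates of a group differed by more than counting noise in all 60 pairs (chi-square per degree of freedom 7.09 to 228), so each library counted as 1 sample. Correlations and figures used Python 3.11.15 with scipy 1.17.1 and matplotlib 3.10.9. The fit and the correlation test were tested on simulated data.

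Promoters are from RefSeq, GRCm38.p6. The genes named are the 10, up to 4 genes with the smallest p per list and comparison, 3 genes per member by likeness, and B2m and Jak1. A listed marker and a gene chosen by likeness are not reported here. The members and lists were chosen with earlier results of these data known. Alternatives were RLE factors, DESeq2 1.42.0, no filter on low counts, a fit of the compared groups alone, the replicate number as a block, and leaving out libraries.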

Additional observations from a re-analysis of the deposited data

Results flagged for a closer look

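Of 60 sets of 5 libraries (10 genes in 6 groups), 7 had a library far from the other 4 by Dixon's criterion, in each case the highest. For normal values chance gives about 1 in 20, counting the highest and the lowest library together. The values were CPM on a linear scale, some from few counts, so that rate is only a rough guide here. WT IgG1 replicate 1 was that library 4 times, for Cxcl1 (20.2 CPM, 480 counts), S100a9 (1.86 CPM, 44 counts), S100a8 (1.65 CPM, 39 counts) and Cxcr2 (0.295 CPM, 7 counts). Jak1KO aPD1 replicate 5 was that library for Cxcl2 (1.69 CPM, 39 counts) and S100a8 (0.434 CPM, 10 counts). WT aPD1 replicate 1 was that library for Cxcr2 (0.165 CPM, 3 counts).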

How the results depend on the processing

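No fold change given above for the 9 tested genes reversed, and those of other named genes were not compared. Of the 38 with an unadjusted p under 0.05, the alternatives other than leaving out 1 library gave 217 values on the same side of the threshold, 4 that lost and 7 that gained a call, and leaving out 1 library gave 419, 10 and 11. Of the 61 other fold changes, 20 of 366 values took the other direction, none larger than 0.192, and without 1 library 107 of 730, the largest 1.94. When only the groups compared were fitted, none of the 9 genes passed between aPD1 and IgG1 in WT tumours (0 in place of 2), and the count of all genes was 66 in place of 679. It was then 1856 in place of 3162 for B2mKO against WT with aPD1, 1547 in place of 3280 with IgG1, 4881 in place of 3218 for Jak1KO against WT with aPD1 and 1759 in place of 2839 with IgG1. Without both libraries that stood apart, Jak1KO against WT with aPD1 gave 5432. For the antibody effect in B2mKO minus that in WT, 16 genes passed, against 10 with no filter, 9 with only the groups compared, 9 without both libraries and 121 by DESeq2, and for Jak1KO 0 against 51 by DESeq2. DESeq2 called 1 of the 9 genes in each. The cause was not tested.

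Leaving out 1 library gave 2 to 3 of the 9 genes for aPD1 against IgG1 in WT tumours, 0 in B2mKO and 0 in Jak1KO tumours, 2 to 5 for B2mKO against WT with aPD1 and 0 to 1 with IgG1. It gave 5 in every case for Jak1KO against WT with aPD1, 3 to 5 with IgG1, 2 to 4 for B2mKO against Jak1KO with aPD1, 4 with IgG1, and 0 to 1 for either difference in antibody effect. Over all genes it gave 230 to 1100 for the antibody in WT tumours, 0 to 154 for the B2mKO difference in antibody effect and 0 to 127 for the Jak1KO one. Over all genes the B2mKO against WT counts were 2398 to 3307 with aPD1 and 2337 to 3925 with IgG1, the Jak1KO against WT counts 2428 to 3300 and 2265 to 3011, and the B2mKO against Jak1KO counts 3702 to 4615 and 3628 to 4407, in the same order of antibodies.

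Of 45 gene pairs, 8 passed by Spearman's rho, 10 with a prior count of 0.5, 15 with RLE factors and 11 without both libraries, in place of 16. Over all pairs of groups, libraries with the same replicate number did not deviate together (75 pairs, r from -0.587 to 0.464, mean -0.018). Between the antibodies of 1 genotype, the mean was 0.181 in Jak1KO, 0.132 in WT and 0.006 in B2mKO tumours. For other numbers it was -0.045, -0.032 and 0.003. Whether the numbers pair libraries within a genotype was not tested. With the replicate block, S100a9 was added for B2mKO against Jak1KO with aPD1 (log2 fold change 2.44, edgeR adjusted p = 0.0453), giving 3 genes in place of 2, and no other count of the 9 genes moved. Depth limits Cxcr2, S100a8, S100a9 and Cxcl2, with 45, 235, 233 and 667 counts over 30 libraries.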
